A study of Mactra quadrangularis with 6 samples.

Results

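The spliceosome genes described here are the 151 genes, of 25145 in the deposited table, that carry the KEGG spliceosome pathway and whose description does not name a heat shock protein, a ribosomal RNA or a nucleolar protein. The pathway itself held 166 genes, and all 15 that were set aside are heat shock proteins. Their RNA was sequenced from mantle, which builds the shell, in a surf clam that the labels call Mactra quadrangularis and the series text Mactra veneriformis. There were 3 libraries labelled as ocean acidification stress and 3 labelled as control. The series text puts the stressed clams at high pH, the opposite of acidification, so acidified and control are only the names that the labels give. The clams' age, the dose, its duration and the pH reached are not stated, and nothing says whether each library came from a separate animal. The p-values below therefore measure the spread between these libraries, which may be technical.

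The spliceosome removes introns from pre-mRNA. Small nuclear RNAs, each bound by a ring of Sm or LSm proteins, form the U1, U2, U4/U6 and U5 particles (snRNPs). U1 marks the 5′ splice site and U2 the branch site, the U4/U6.U5 tri-snRNP then joins, and helicases and the Prp19 complex remodel the assembly into its catalytic form. SR proteins and heterogeneous nuclear ribonucleoproteins (hnRNPs) bind exons and introns and influence which sites are used, and the exon junction complex is left on the mRNA where exons were joined. Every cell that transcribes genes with introns uses this machinery.

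The annotation of 118 of the 151 genes named a splicing protein, 108 by their description and 10 by their KEGG ortholog entry alone. All 118 carried gene ontology terms, and for 98 these included splicing. They lay on all 19 chromosomes of the assembly, and no member overlapped another gene of the table. The other 33 members were described as something else. Among these were 11 NFX1-type zinc finger genes that carry the ortholog entry of aquarius, an intron-binding protein, and 8 genes that carry the entry of EFTUD2, the U5 GTPase, including 1 described as a mobile-element polymerase. Of the 33, 25 carried gene ontology terms, and for only 2 these included splicing, against 98 of the 118. The ontology terms thus name splicing more often for the 118 than for the 33. The 118 were themselves defined by annotation, so this is not independent support for the split. The ortholog entry alone placed 10 of the 118, and the 33 carry such entries as well. The results below are centred on the 118 because their annotation names a splicing protein.

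Total counts ran from 28482358 to 37066703 in the acidified libraries and from 31929388 to 32992500 in the control libraries. Scaling factors between libraries (TMM, a trimmed mean that assumes most genes do not differ) separated the groups, at 0.849 to 0.987 in acidified and 1.08 to 1.19 in control libraries. Folds below are thus relative to the median gene, and scaling by library size alone placed that median at -0.33 on the log2 scale. Of 61 genes with mantle marker descriptions, such as tyrosinase and shell matrix proteins, 4 were at 0 in all libraries, and their summed level was 1397.9 to 1836.1 FPKM (a level scaled by library size and transcript length) in acidified and 1391.9 to 1544.5 in control libraries. Summed markers of digestive gland, germ line, muscle and cilia overlapped between the groups as well. Muscle markers summed to 4327.6, 2890.4 and 2599.2 FPKM in acidified libraries, against 4952.5, 5522.4 and 3492.2 in control libraries. Acidified 2 and acidified 3 thus lay below every control library, and acidified 1 did not. These sums are in FPKM, without TMM scaling. With TMM scaling, the median log2 fold change, acidified over control, was -0.08 for the 14 muscle markers tested. It was 0.11 for mantle, 0.09 for digestive gland, -0.08 for germ line and -0.14 for cilia markers. In pieces of tissue, fewer cells of a type and less RNA per cell cannot be told apart.

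Spliceosome genes were expressed well above the typical gene. The 118 had a median level of 15.7 FPKM over the 6 libraries, against 1.16 FPKM for all genes of the table. All 118 passed the filter on low counts, as did 22 of the other 33, whose median level was 0.528 FPKM. The highest level, 496.9 FPKM, belonged to an hnRNP 87F-like gene (Mve19G007080; named after the fruit fly protein), an RNA-binding protein that coats transcripts. NHP2-like protein 1 (Mve01G001000), which binds U4 RNA and also small nucleolar RNAs, had 471.5 FPKM, a second hnRNP 87F-like gene (Mve07G001140) 309.9 FPKM, and the helicase DDX5 (Mve01G004990) had 298.3 FPKM. In all, 9 of the 118 exceeded 100 FPKM and 6 were under 2 FPKM.

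**Figure D1:**
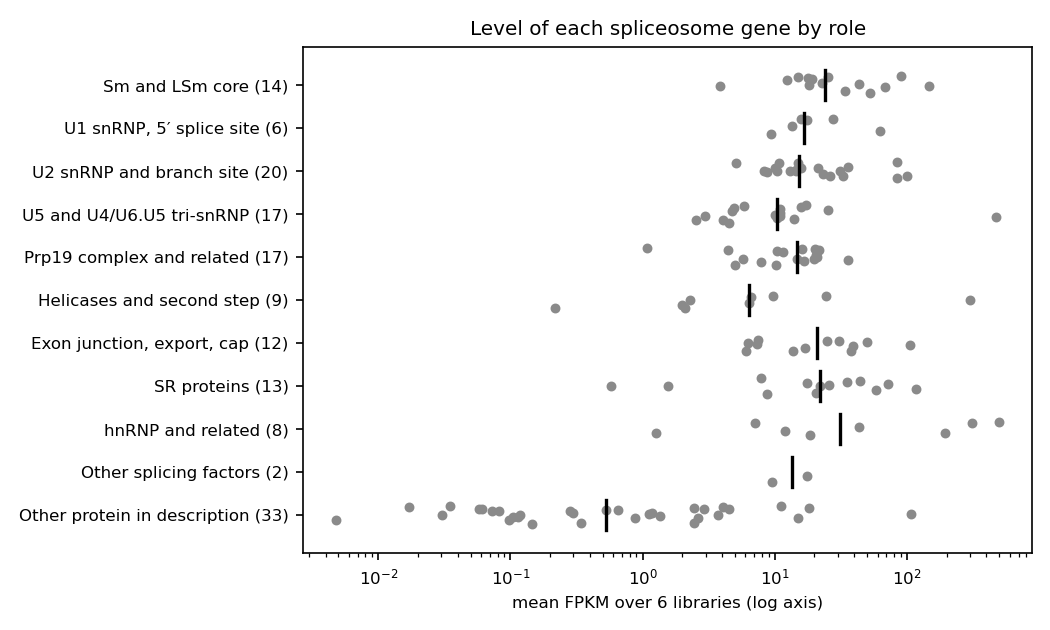
Mean level of each of the 151 spliceosome genes over the 6 libraries, in FPKM on a log axis, by role, with the number of genes in brackets; vertical bars are medians. Genes naming a splicing protein centre on 15.7 FPKM, while the 33 with another description centre on 0.528 FPKM.

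Genes whose proteins assemble into one ring did not share one RNA level in FPKM. The 7 Sm proteins (B, D1, D2, D3, E, F and G) ranged from 22.8 to 146.0 FPKM, a 6.41-fold range, with a median of 52.3 FPKM. The highest, Sm F, had a transcript 0.164 times as long as that of the median gene, and FPKM divides by length. LSm2 to LSm8, which form the ring on U6 RNA, ranged from 3.87 to 25.1 FPKM, a 6.5-fold range, with a median of 17.8 FPKM. The lowest, LSm4 (Mve03G012950), was named by its ortholog entry alone and is described as UPF0632 protein A. The next lowest, LSm7, had 12.3 FPKM, so the lower end of this range rests on that assignment. LSm7, LSm6 and the highest, LSm3, were also named by their ortholog entries alone, as was Sm D1 in the other ring. Within the U5 particle, the long transcripts of its large proteins stood lower than those of any Sm gene: PRP8 (Mve11G003130) had 10.9 FPKM, the 200 kDa helicase (Mve13G007290) 4.73 FPKM and the GTPase EFTUD2 (Mve12G004230) 4.05 FPKM. Among the splicing roles with over 2 genes, median levels ran from 6.43 FPKM for helicases and second-step factors to 31 FPKM for hnRNPs.

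The single comparison of the series asks which genes differ between acidified and control mantle. As a whole the spliceosome stayed close to the median gene. Summed over the 118 genes, TMM-scaled CPM (counts scaled to library size) were 9239.2, 9362.9 and 8934.7 in the acidified libraries and 9532.9, 9195.6 and 8771.2 in the control libraries, so the groups overlapped. The median log2 fold change, acidified over control, was -0.03 over the 118 and 0.00 over all 17790 genes tested, and 56 of the 118 lay above 0 and 62 below. Scaling by library size alone, which lowered the median of all genes too, placed 21 above 0 and 97 below. The interquartile range was -0.27 to 0.24 for the 118 and -0.47 to 0.43 for all genes, whose median SE was 0.37, against 0.22 for the 118. Only 2 of the 118, a second copy of CDC5L and an acinus-like gene, differed by over 2-fold. Replicates were also tight, with a median coefficient of variation of 14.7% among acidified and 11.5% among control libraries, against 22.3% and 19.6% for the 9543 genes in the same range of levels (2.08 to 121.5 FPKM).

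No spliceosome gene passed the test. With edgeR's quasi-likelihood test and Benjamini-Hochberg adjustment over all genes tested, 0 of the 140 members tested had an adjusted p under 0.05, and the share was 0% over all genes, where the smallest adjusted p was 0.118. The smallest among members was 0.126. At an unadjusted p under 0.05 there were 23 of 140 members (16.4%), 13 higher and 10 lower, against 17.4% of all genes, 9.29% higher and 8.13% lower. Of the 118 there were 19 (16.1%), 11 higher and 8 lower. The 3 acidified values lay entirely above or below the 3 control values in 34 of the 118 (28.8%), 19 higher and 15 lower, against 25.6% of all genes. These shares are near the background. Scaling by library size alone placed 3 of the 118 higher and 30 lower at the unadjusted threshold, against 3.24% and 17.7% of all genes, 20.9% in all.

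The counts at the unadjusted threshold moved with single libraries. Among the 118, the count of 11 higher became 7 without acidified 2, 6 without acidified 3, 6 without control 2 and 5 without control 3. The count of 8 lower became 3 without acidified 3, 2 without control 1 and 3 without control 2, but rose to 10 without acidified 2. DESeq2, run as an alternative, called 6.26% of all genes at an adjusted p under 0.05, 3.68% higher and 2.58% lower, and 4 members: LSm3, SF3B5 and PPIL1 higher, with adjusted p of 0.00754, 0.0117 and 0.0202, and the acinus-like gene lower, with 0.0201.

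**Figure D2:**
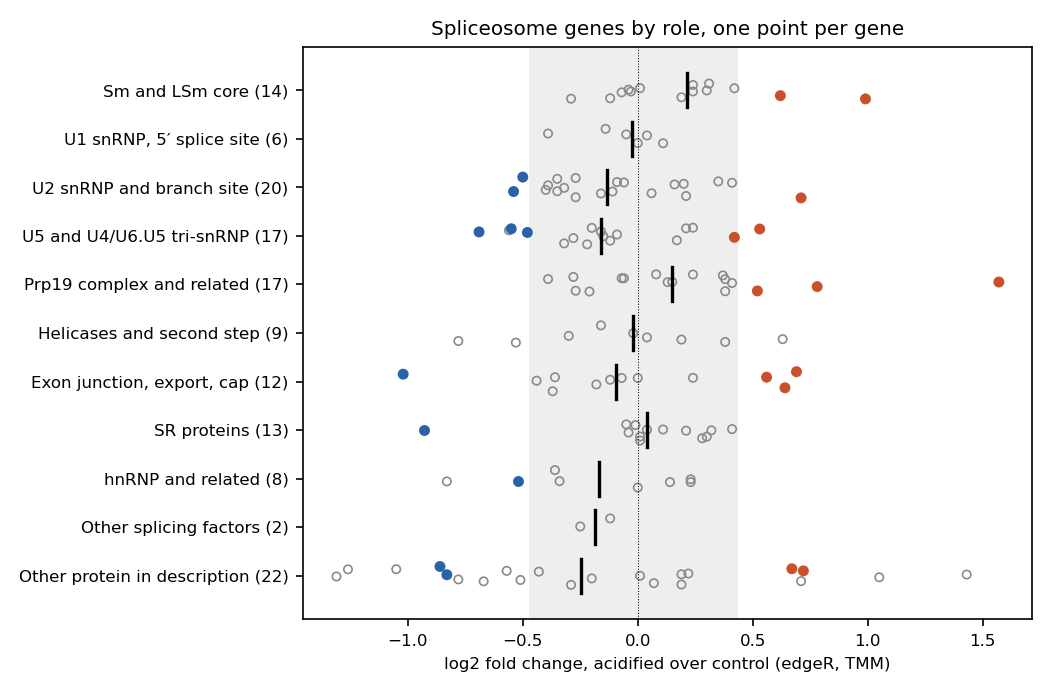
Log2 fold change, acidified over control, of the 140 spliceosome genes tested, by role, with the number tested in brackets. Filled points have an unadjusted p under 0.05 (orange higher, blue lower), vertical bars are medians and the grey band spans the interquartile range of all genes tested, -0.47 to 0.43; no point passes adjustment with edgeR, and 4 do with DESeq2.

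Among the Sm and LSm proteins, 2 subunits of the ring on U6 RNA lay highest. LSm3 (Mve08G014460, chromosome 8, 44240115 to 44243290, plus strand; named by its ortholog entry) had 29.9, 36.0 and 44.6 CPM in acidified libraries, against 21, 19 and 15.6 CPM in control libraries. The groups did not overlap, and the log2 fold change was 0.99 ± 0.23 (SE, n = 3 each), with an edgeR p of 0.00271 and an adjusted p of 0.126. LSm8, the subunit that marks the nuclear ring, had 33.3, 38.5 and 48.3 CPM in acidified libraries, against 29.7, 26.8 and 21.9 CPM in control libraries. It too was separate, at 0.62 ± 0.22 and an adjusted edgeR p of 0.224.

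For the 5 partners of these subunits the groups overlapped. LSm2, LSm4, LSm5, LSm6 and LSm7 had log2 fold changes from -0.07 to 0.30. The highest of them, LSm5 at 0.30 ± 0.33 and LSm6 at 0.24 ± 0.35, had wide errors, and the difference between subunits was not tested. Of the Sm proteins only E was separate, with 113.2, 132.9 and 122.3 CPM in acidified libraries, against 110.8, 92.5 and 93.5 CPM in control libraries, at 0.31 ± 0.17. The 14 genes had a median of 0.21, with 2 at an unadjusted p under 0.05 (14.3%, against 17.4% of all genes), both higher. Without one library at a time the median, taken relative to all genes, ran from 0.03 to 0.34. The count of 2 became 1 without acidified 3, control 2 or control 3, and 3 without control 1. Their median deviation differed between acidified libraries, at -0.11, 0.23 and 0.53 on the log2 scale, against 0.17, 0.00 and -0.24 in control libraries, so acidified 3 was high and acidified 1 lay within the control range.

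The 6 genes of the U1 particle and the 5′ splice site lay near 0, with a median of -0.02 and none at an unadjusted p under 0.05. U1-70K (Mve16G010260), which binds U1 RNA and contacts SR proteins, was at -0.14 ± 0.18. U1 A, which also binds U1 RNA, was lowest at -0.39 ± 0.28, with overlapping groups. PRPF40, which in yeast bridges U1 and the branch site, was at 0.11 ± 0.19.

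The 20 genes of the U2 particle and the branch site had a median of -0.13, with 7 above 0 and 13 below. The gene farthest from 0 was SF3B5 (Mve03G008770, chromosome 3, 27182113 to 27182918, plus strand), a small subunit of the SF3B complex that holds the branch site. It had 44.2, 38 and 44.3 CPM in acidified libraries, against 26.7, 24.7 and 26.2 CPM in control libraries, all higher than any control value. The log2 fold change was 0.71 ± 0.17, with an edgeR p of 0.00395 and an adjusted p of 0.137.

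The large subunits of the same complex lay on the other side of 0. SF3B1 (Mve12G012240), its scaffold, was at -0.32 ± 0.18, with overlapping groups, SF3B2 at -0.39 ± 0.22 and SF3B3 at -0.27 ± 0.17. Of the small subunits, SF3B6 was at 0.41 ± 0.27, PHF5A at -0.27 ± 0.30 and SF3B4, whose transcript is 0.864 times as long as that of the median gene, at -0.40 ± 0.29. The 2 subunits of U2AF, the dimer that reads the 3′ splice site, also lay apart. The large one, which binds the polypyrimidine tract (Mve01G020890), had 116.5, 133.8 and 103.8 CPM in acidified libraries, against 141.6, 157.5 and 151.1 CPM in control libraries, separate groups at -0.35 ± 0.17 and an adjusted edgeR p of 0.355. The small one, which contacts the AG at the intron end (Mve07G008990), overlapped, at 0.35 ± 0.22. Neither difference passed the test, and the difference between partners was not tested.

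CHERP and PUF60 were the 2 lower genes of this role at an unadjusted p under 0.05 (10%, against 8.13% of all genes). SF3B5 was the 1 higher gene (5%, against 9.29%). CHERP, described by its older name as a calcium homeostasis protein and known to associate with U2, had 32.5, 31.4 and 33.6 CPM in acidified libraries, against 47.7, 41.9 and 48.1 CPM in control libraries, at -0.50 ± 0.17 and an adjusted edgeR p of 0.203. PUF60, which cooperates with U2AF on uridine-rich tracts, was at -0.54 ± 0.23, with separate groups and an adjusted p of 0.285. The count of 2 lower became 1 without acidified 1, acidified 3 or control 2, and 0 without control 1 or control 3.

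In the U5 and tri-snRNP group, 17 genes had a median of -0.16, with 12 below 0. Without one library at a time this median, taken relative to all genes, ran from -0.23 to -0.05. The 3 large proteins that form the core of U5 were its 3 lower genes at an unadjusted p under 0.05 (17.6%, against 8.13% of all genes). The 200 kDa helicase (Mve13G007290, chromosome 13, 24022826 to 24073078, minus strand), which unwinds U4 from U6, had 39.8, 35.5 and 35.2 CPM in acidified libraries, against 60.3, 52.3 and 48.9 CPM in control libraries. The groups were separate, at -0.55 ± 0.18 and an adjusted edgeR p of 0.192.

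PRP8 (Mve11G003130, chromosome 11, 8846914 to 8886885, plus strand), the protein that cradles the catalytic RNA, had 89.8, 98.1 and 75 CPM in acidified libraries, against 116.7, 128.4 and 122.6 CPM in control libraries. It was separate as well, at -0.48 ± 0.18 and an adjusted edgeR p of 0.233. EFTUD2 (Mve12G004230, chromosome 12, 14940962 to 14970142, plus strand), the GTPase that regulates the helicase, had 12.5, 15.4 and 9.44 CPM in acidified libraries, against 23.5, 21.8 and 15.0 CPM in control libraries. Its groups overlapped, at -0.69 ± 0.27 and an adjusted p of 0.253. The count of 3 lower became 1 without acidified 3, without control 1 or without control 2, and 4 without acidified 2.

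The 2 higher genes of this group (11.8%, against 9.29% of all genes) encode small proteins. Thioredoxin-like protein 4A, a small U5 protein, had 17.6, 15.7 and 19.1 CPM in acidified libraries, against 14.4, 9.92 and 12 CPM in control libraries, at 0.53 ± 0.22. NHP2-like protein 1 had 219.0, 239.3 and 274.4 CPM in acidified libraries, against 196.4, 191.0 and 159.5 CPM in control libraries, at 0.42 ± 0.18. Both were separate, with adjusted edgeR p of 0.273 and 0.286, and neither was at an unadjusted p under 0.05 without acidified 3, control 2 or control 3. The remaining 12 genes, among them Prp3, Prp4, Prp6 and Prp31 of the tri-snRNP, lay between -0.56 and 0.24.

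**Figure D3:**
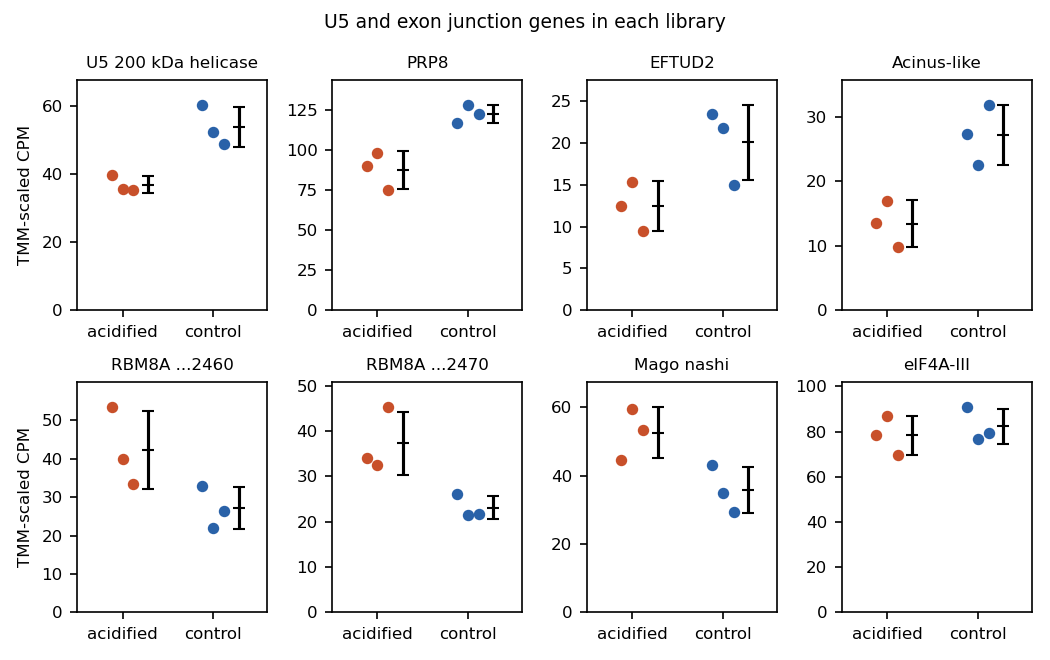
TMM-scaled CPM of 8 genes in each library, acidified (orange, left) and control (blue, right), with the mean and SD of 3 libraries beside the points. The 200 kDa helicase and PRP8 lie lower in all acidified libraries, the 2 RBM8A copies and mago nashi higher, and eIF4A-III overlaps.

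The 17 genes of the Prp19 complex and its partners, which stabilise the catalytic core, had a median of 0.15, with 11 above 0 and 6 below. PPIL1 (Mve08G005920), a cyclophilin, had 28.1, 37.1 and 30.3 CPM in acidified libraries, against 20.1, 18.5 and 17 CPM in control libraries. The groups were well apart, at 0.78 ± 0.19, with an edgeR p of 0.0046 and an adjusted p of 0.145. SYF2, another component, was also separate, at 0.52 ± 0.21 and an adjusted p of 0.27.

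CDC5L, the Myb-like core protein of the complex, had 2 genes on chromosome 5. The main one (Mve05G002510) had 65.6, 75.8 and 73.5 CPM in acidified libraries, against 55.1, 51.8 and 58.4 CPM in control libraries, separate at 0.38 ± 0.17 and an adjusted edgeR p of 0.295. The second (Mve05G008530), whose closest described match is a bird protein, was expressed far lower, with 1.92, 4.33 and 3.72 CPM in acidified libraries, against 1.16, 1.26 and 0.923 CPM in control libraries. It had the highest log2 fold change of the 118, 1.57 ± 0.45, with an adjusted edgeR p of 0.162. Reads shared between the copies would make both values uncertain. PRPF19 itself, the ubiquitin ligase of the complex, was at -0.27 ± 0.20 with overlapping groups.

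None of the 9 helicases and second-step factors was at an unadjusted p under 0.05, and their median was -0.02. DDX5, a helicase that acts early and also in transcription, had 832.6, 766.9 and 754.6 CPM in acidified libraries, against 948.5, 962.9 and 978.7 CPM in control libraries. The groups were separate but close, at -0.30 ± 0.15 and an adjusted edgeR p of 0.358. PRP16 (Mve06G006440), which remodels the spliceosome between its catalytic steps, was at -0.53 ± 0.26, and DHX8, which releases the spliced mRNA, at 0.38 ± 0.20, both with separate groups.

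The exon junction, export and cap-binding group, 12 genes with a median of -0.09, held both directions. At an unadjusted p under 0.05, 3 lay higher (25%) and 1 lower (8.33%), against 9.29% and 8.13% of all genes. The acinus-like gene (Mve06G009190, chromosome 6, 30143997 to 30174936, minus strand), whose relatives bind the exon junction complex, had 13.5, 17 and 9.76 CPM in acidified libraries, against 27.3, 22.6 and 31.9 CPM in control libraries. No acidified value reached a control value, and the log2 fold change was -1.02 ± 0.26, with an edgeR p of 0.00515 and an adjusted p of 0.149.

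RBM8A and mago nashi, which form the dimer at the heart of the exon junction complex, lay higher. RBM8A had 2 genes 9020 bases apart on chromosome 10, on opposite strands. Mve10G002470 (8817896 to 8826503, minus strand) had 34.0, 32.6 and 45.3 CPM in acidified libraries, against 26.1, 21.4 and 21.8 CPM in control libraries, at 0.69 ± 0.21 and an adjusted edgeR p of 0.176. Mve10G002460 (8799517 to 8808876, plus strand) had 53.5, 39.9 and 33.5 CPM in acidified libraries, against 32.9, 22.1 and 26.4 CPM in control libraries, at 0.64 ± 0.25 and an adjusted p of 0.251. Both were separate, the second only narrowly, and reads shared between them would tie their values.

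Mago nashi (Mve03G006410) had 44.6, 59.6 and 53.5 CPM in acidified libraries, against 43, 34.9 and 29.5 CPM in control libraries, at 0.56 ± 0.22 and an adjusted edgeR p of 0.25. The helicase eIF4A-III, which clamps the complex on RNA, overlapped at -0.07 ± 0.18. Of the export factors, THO complex subunit 4, the export adapter, was at -0.44 ± 0.20 and subunit 2 at -0.36 ± 0.18. Both were separate but above an unadjusted p of 0.05. THO subunits 1 and 3 and the export helicase DDX39B overlapped, at 0.00 ± 0.23, -0.12 ± 0.25 and -0.18 ± 0.23. The count of 3 higher genes became 1 without acidified 2, without control 2 or without control 3, and the count of 1 lower became 2 without acidified 1.

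SR proteins lay close to the median gene. The 13 genes had a median of 0.04 and a median absolute log2 fold change of 0.11, against 0.25 over the 118, with median SEs of 0.19 and 0.22. SRSF4, the most abundant at 117.2 FPKM, had 486.8, 426.4 and 388.4 CPM in acidified libraries, against 464.9, 404.1 and 427.1 CPM in control libraries, at 0.01 ± 0.17, and SRSF1A was at -0.05 ± 0.19. The one gene at an unadjusted p under 0.05 was a scarce one, a probable SR factor 6 (Mve01G008090), with 2.31, 1.35 and 1.88 CPM in acidified libraries, against 3.2, 3.56 and 3.8 CPM in control libraries, at -0.93 ± 0.36 and an adjusted edgeR p of 0.248. It was above an unadjusted p of 0.05 without any one library other than acidified 1. Among the 13 genes this made 7.69% lower, against 8.13% of all genes.

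Among the 8 hnRNP genes the median was -0.17, with 1 lower at an unadjusted p under 0.05 (12.5%, against 8.13% of all genes) and none higher. The most abundant spliceosome gene, the hnRNP 87F-like Mve19G007080, had 1806.5, 1744.3 and 1735.8 CPM in acidified libraries, against 1560.0, 1574.5 and 1372.0 CPM in control libraries, separate at 0.23 ± 0.15. An hnRNP A1-like gene (Mve07G001700) had 604.5, 597.1 and 480.1 CPM in acidified libraries, against 784.4, 768.6 and 606.7 CPM in control libraries, separate at -0.36 ± 0.19. Myelin expression factor 2, an hnRNP-like repressor in mammals, was at -0.52 ± 0.22, with overlapping groups and an adjusted edgeR p of 0.286, the one hnRNP gene at an unadjusted p under 0.05 and not so without acidified 2, acidified 3, control 1 or control 2. The 2 remaining splicing factors, WBP11 and PQBP1, were at -0.25 ± 0.20 and -0.12 ± 0.24.

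Of the 33 members with another description, 22 were tested, with a median of -0.25. At an unadjusted p under 0.05 there were 4 (18.2%), 2 in each direction (9.09% each). This is near the share over all genes, 17.4%, with 9.29% higher and 8.13% lower. FAM134C-like, named for an endoplasmic reticulum protein, was at -0.83 ± 0.24, WDR25-like at -0.86 ± 0.29, WDR55 at 0.72 ± 0.23 and selenoprotein F-like at 0.67 ± 0.29. The count of 2 higher became 0 without acidified 2 or control 2 and 1 without control 3, and the count of 2 lower became 4 without acidified 3 and 1 without control 1. Of the 11 NFX1-type genes, 8 lay side by side on chromosome 4 between 13382833 and 13563749, and 10 of the 11 were under 1 FPKM. Of the 7 tested, none was at an unadjusted p under 0.05. Only 1 of the 8 genes that carry the entry of EFTUD2 passed the filter on low counts.

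Transcript length moved with these differences. Relative length was recovered from the ratio of count to FPKM and set to 1 for the median gene. Over all genes tested, the median log2 fold change was 0.25 in the shortest tertile, 0.05 in the middle tertile and -0.24 in the longest tertile. The 118 gave 0.24, -0.08 and -0.09. Of the 11 higher genes at an unadjusted p under 0.05, 9 were among the 35 shortest and none among the 35 longest, while of the 8 lower genes none was among the shortest and 5 were among the longest. In the shortest tertile this made 25.7% of the spliceosome genes higher, against 14.7% of all genes, and 0% lower, against 2.88%. In the longest tertile it made 0% higher, against 3.61% of all genes, and 14.3% lower, against 15.3%, so the share of lower genes among the longest was near the background. Across the 118 genes, which share the same 6 libraries, log2 fold change and log2 length had Pearson's r of -0.38 and Spearman's rho of -0.42, against -0.23 and -0.29 over all genes.

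With the length trend of each library removed, the medians of the 118 became 0.05, -0.09 and 0.07 from shortest to longest, and 15 of the 118 (12.7%) were at an unadjusted p under 0.05, 11 higher and 4 lower, against 15.3% of all genes, 8.72% higher and 6.55% lower. The U5 and tri-snRNP values shrank, and of the 5 genes of this group at an unadjusted p under 0.05 none was left. The 200 kDa helicase, 5.29 times the median length, went to -0.17 with an edgeR p of 0.374, PRP8, at 5.32 times, to -0.10 with a p of 0.602, and EFTUD2 to -0.46 with a p of 0.127. The 2 higher genes, NHP2-like protein 1 and thioredoxin-like protein 4A, went to 0.14 and 0.37, with edgeR p of 0.401 and 0.128. Of the large SF3B subunits, SF3B1 and SF3B3 went to 0.00 and SF3B2 to -0.13, and THO complex subunit 2 went to 0.00. RBM8A went to 0.43 and 0.40 and mago nashi to 0.39, with p of 0.0526, 0.176 and 0.0994. SYF2 went to 0.33, PUF60 to -0.49 and myelin expression factor 2 to -0.33, with edgeR p of 0.163, 0.062 and 0.18.

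Other genes kept an unadjusted edgeR p under 0.05 with the trend removed. LSm3 was at 0.76, with an unadjusted edgeR p of 0.00713, and the acinus-like gene at -0.85, with 0.00978. SF3B5 was at 0.47, PPIL1 at 0.52, CHERP at -0.42 and LSm8 at 0.52, with unadjusted edgeR p of 0.0276, 0.0282, 0.0384 and 0.0461. The second CDC5L gene was at 1.5 and the probable SR factor 6 at -1.02, with unadjusted edgeR p of 0.0104 and 0.0234. Some genes came under 0.05 only with the trend removed, such as DHX8 at 0.64, SRSF10-like at 0.57, the main CDC5L gene at 0.50, the large U2AF subunit at -0.47 and hnRNP 87F-like Mve19G007080 at 0.38, with unadjusted edgeR p of 0.0131, 0.0173, 0.0182, 0.028 and 0.036. DHX8 and SRSF10-like are named after their values were seen. The part of transcript length in the differences was not tested.

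**Figure D4:**
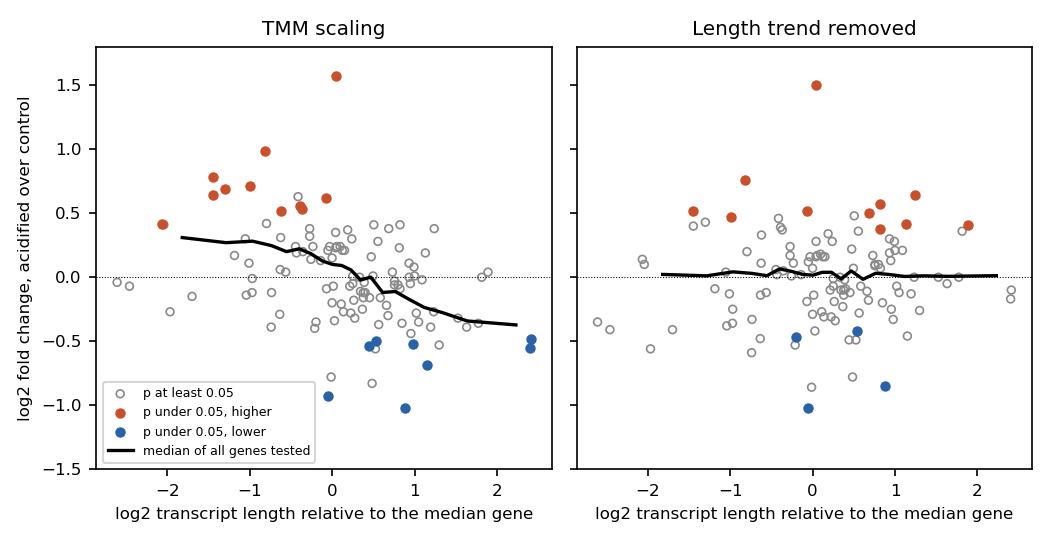
Log2 fold change, acidified over control, of the 118 genes naming a splicing protein against log2 relative transcript length, with TMM scaling (left) and with each library's length trend removed (right); filled points have an unadjusted p under 0.05 and the line is the median of all genes tested in 20 length bins. The line falls with length on the left, and the 2 longest members, PRP8 and the 200 kDa helicase, move towards 0 on the right.

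Genes that work beside the spliceosome but lie outside its pathway were read from 6 lists of descriptions, 56 genes of which 54 were tested. None passed adjustment. At the unadjusted threshold of 0.05, 4 lay higher (7.41%) and 10 lower (18.5%), against 9.29% and 8.13% of all genes. Of the lower ones, 6 were among the 17 tested regulators of alternative splicing, where none was higher, 15 of 17 lay below 0 and the median was -0.66. With the length trend removed the median was -0.61 and 6 lay lower, not all of them the same genes: ESRP1, with an edgeR p of 0.0619, no longer did, and a KH domain-containing protein 2-like gene (Mve03G011240), at -0.46 with a p of 0.0333, did. Without any single library 4 to 6 lay lower.

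A gene like FUBP1 (Mve14G001000, chromosome 14, 4186998 to 4223626, plus strand), a single-stranded nucleic acid binder that acts in splicing in mammals, lay farthest by p. It had 11.1, 8.81 and 7.12 CPM in acidified libraries, against 20.2, 22.4 and 16.9 CPM in control libraries, clearly separate, at -1.14 ± 0.24, with an edgeR p of 0.0018, an adjusted p of 0.12 and a DESeq2 adjusted p of 0.00447. The other 5 are named after their values were seen. A second FUBP1-like gene (Mve14G000670) was at -1.01 ± 0.30, PTBP1, a repressor of exons, at -0.91 ± 0.29, ESRP1, which acts in epithelia in mammals, at -0.68 ± 0.23, quaking at -0.66 ± 0.25 and Nova-1, known from neurons, at -1.26 ± 0.48. In all 6, picked at an unadjusted p under 0.05, the acidified values lay below every control value. Acidified 3 was the lowest of the 6 libraries in each, at 8.94 CPM for PTBP1, against 28.1, 26.9 and 30.1 CPM in control libraries. Over the 17 tested regulators, 8 (47.1%) lay entirely lower and 0 entirely higher, against 13.4% and 12.2% of all genes.

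Of 15 cleavage and polyadenylation genes tested, 2 lay higher and 3 lower at that threshold, with polyadenylate-binding protein 2 at 0.56 ± 0.17 and a cleavage stimulation factor subunit 3-like gene (Mve05G009190) at -1.10 ± 0.34. The count of 3 lower became 1 without acidified 3 and 1 with the length trend removed, and the count of 2 higher became 1 without acidified 2, control 2 or control 3. Of 11 snRNP assembly genes, 2 were higher (18.2%, against 9.29% of all genes), led by pICln, which delivers Sm proteins, at 0.59 ± 0.22. This count became 0 without acidified 3 or without any one control library, and 1 without acidified 1 or with the length trend removed. The 2 minor spliceosome genes and the single SR protein kinase gene were above an unadjusted p of 0.05.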

How the data were processed

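Mantle poly(A) RNA from 3 acidified and 3 control libraries was sequenced as dUTP-marked paired ends, per the labels' protocols. The submitters' processing notes name cutadapt 1.9, HISAT2 2.2.1, StringTie 2.1.6, DESeq2 and edgeR; the genome build and strand use in counting were not given in the sources used here. The authors deposited raw counts and FPKM values per gene in 1 table, per the file headers; 12 further columns of libraries outside the listed samples were not used.

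Counts were fitted with edgeR 4.0.16 in R 4.3.3 (filterByExpr, TMM, quasi-likelihood, group only) on the whole table, which left 17790 genes, with Benjamini-Hochberg adjustment. SEs were derived from the F statistic. DESeq2 1.42.0 and limma 3.58.1 on FPKM were alternatives, as were other scalings, no filter, a length-trend offset (lowess smooth of span 0.3), the replicate number as a block and leaving out each library. The edgeR fit was also run on simulated counts. These held no length trend and no shift in scaling between the groups, so that run says nothing on those features. CPM values are TMM-scaled; levels between genes are compared in FPKM only.

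The members and lists were chosen with earlier results of these data known. Roles came from descriptions and ortholog entries; 54 members were moved from the role a text pattern first gave, after the descriptions were seen, and 4 genes matched by accident were dropped from the related lists. The members of 1 related list are not reported here. The rule for named genes took, per role, up to 3 genes per direction at an unadjusted p under 0.05, the 2 highest by FPKM and known core proteins; other genes named are mostly partners of these in the same complex and were chosen after their values were seen.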

Additional observations from a re-analysis of the deposited data

How the results depend on the processing

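At the unadjusted threshold, 13 members lay higher and 10 lay lower. Without one library at a time the higher count ran from 6 to 12 and the lower count from 3 to 12. The members whose groups did not overlap, 20 higher and 19 lower, then ran from 21 to 30 and from 21 to 32, with fewer values per group by construction, and the related genes, 4 higher and 10 lower, from 1 to 3 and from 7 to 10. With library size alone, members were 3 higher and 35 lower, not overlapping 5 higher and 52 lower, and related genes 0 higher and 21 lower. At the unadjusted threshold this scaling placed 3.24% of all genes higher and 17.7% lower. On FPKM with limma (pseudocount 1 and a mean of at least 1, pseudocount 0.1, and pseudocount 1 with no filter), members were 3, 2 and 3 higher and 36, 36 and 44 lower, related genes 0, 0 and 0 higher and 19, 18 and 20 lower, and not overlapping 5 higher and 56 lower; these 2 scalings also placed the median of all genes at -0.33 and at -0.23, -0.29 and -0.11. DESeq2 called 3 members higher and 1 lower where edgeR called 0. Removing the length trend left 6 lower. Shares over all genes were not taken for limma, the replicate block, the fits without one library or non-overlap under other scalings. Those counts have no background beside them and are not read as a result about the members.

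Replicate numbers gave no pairing (correlations of same-numbered deviations 0.009, -0.044 and -0.007). With the replicate block, 7 members and 1 related gene lay higher; with the replicate block and the length trend removed, 5 members lay higher and 6 lower, and 1 related gene higher.

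Medians, taken relative to all genes, moved as follows. On unfiltered FPKM they were -0.19 for all members, -0.23 for U1, -0.33 for U2, -0.33 for U5, -0.05 for Prp19, -0.15 for helicases, -0.29 for exon junction, -0.10 for SR, -0.36 for hnRNP and -0.38 for other factors. On filtered FPKM they were -0.10 for all members, -0.11 for U1, -0.21 and -0.18 (pseudocount 0.1) for U2, and 0.03 and 0.04 for members with another description. With the length trend removed, without and with the replicate block, they were 0.10 and 0.11 for U1 and 0.15 and 0.17 for helicases; for U2 the block gave -0.11 with and without it. Without one library at a time, medians ran from -0.10 to 0.02 for all members, -0.07 to 0.06 for U1, -0.19 to -0.05 for U2, -0.16 to 0.02 for helicases, -0.19 to 0.04 for exon junction and -0.50 to 0.04 for members with another description.

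Among the members named by rule, signs turned in BUD31 (-0.02), PRPF40 (-0.10), SRSF4 (-0.10, -0.05 and -0.22) and Mve07G001140 (-0.08) on FPKM, Mve07G001140 (-0.02) and SRSF1A (0.11, and 0.12 with the block) with the trend removed, and, without single libraries, SRSF4 (-0.06, -0.05 and -0.02), Sm F (0.21 and 0.03), PQBP1 (0.06 and 0.02), PRPF40 (-0.02), the PRP1-like helicase Mve13G000640 (0.02), DDX39B (0.08) and SRSF1A (0.09). Their ranges without single libraries were -0.06 to 0.10 for SRSF4, -0.21 to 0.21 for Sm F, -0.24 to 0.06 for PQBP1, -0.02 to 0.19 for PRPF40, -0.34 to 0.02 for Mve13G000640, -0.32 to 0.08 for DDX39B and -0.15 to 0.09 for SRSF1A. Other members turned as well with the trend removed, such as Mve01G006320 (-0.09, against 0.17 with TMM), Mve12G011240 (-0.13, against 0.11) and Mve18G001470 (-0.14, against 0.06), and without control 1 the 118 were 63 above 0 and 55 below. The cause was not tested.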
